A study of Arabidopsis thaliana with 12 samples.

Results

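The 8 loci described here are QQS (AT3G30720), AT4G29200, MRD1 (AT1G53480), the pseudogenes SADHU3-2 (AT3G42658) and SADHU5-1 (AT4G01525), AT14A (AT3G28290), AT3G28300 and AT2G44500. They are 8 of 23719 genes listed, and were chosen by the difference of their transcript levels between erf114 and Col roots in these same libraries, on MS and on MeJA. The genotype differences below are therefore a description, given with no test. All 8 passed the filter on low values (a minimum of 1 FPKM in 3 or more libraries), as did 18326 genes in all. QQS and AT4G29200 passed it only through Col, and the AT14A pair only through the MeJA libraries. Transcripts were measured by RNA sequencing of Arabidopsis thaliana roots, from seedlings grown for 5 days. The 4 groups were erf114 on methyl jasmonate (MeJA), Col on MeJA, erf114 on MS medium and Col on MS medium, with 3 libraries each. The MeJA groups had 3 h of the hormone ester, per the titles. Its dose is not certain, because the labels give 15 µM for the treatment while the series design gives 50 µM. The mutant carries a changed ERF114, a transcription factor gene on chromosome 5; neither the kind of allele nor the number of lines is stated in the labels.

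QQS is an orphan gene, with no recognised relative outside A. thaliana, and its product affects how carbon is shared between starch and protein through the transcription factor subunit NF-YC4. Sadhu elements are short retroposons without coding capacity of their own, some of which are silenced by DNA methylation in one accession and transcribed in another, and QQS is likewise known for natural and heritable changes of its methylation and level. MRD1 was named for its lower transcript level in the methionine overaccumulation mutant mto1, AT14A encodes a membrane-associated protein with a stretch resembling integrins, and AT2G44500 belongs to the plant O-fucosyltransferase family.

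Positions are those of RefSeq's TAIR10.1, matched by gene ID. QQS lies at chr3:12349047-12349933 on the plus strand and AT4G29200, annotated as a beta-galactosidase related protein, at chr4:14398054-14400198 on the minus strand. MRD1 lies at chr1:19963047-19964712 on the minus strand, SADHU3-2 at chr3:14749400-14750294 on the minus strand and SADHU5-1 at chr4:660810-661698 on the plus strand. AT14A (chr3:10547441-10549401) and AT3G28300 (chr3:10565674-10567634) lie on the plus strand 16273 bases apart, and AT2G44500 lies at chr2:18374162-18376799 on the plus strand. None of the 8 loci is on chromosome 5, where ERF114 is.

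MRD1 overlaps 2 genes of the opposite strand, HEI10 (AT1G53490) and AT1G07887, and AT1G07887 has no values here. Whether counting used strand is not stated, so reads of MRD1 and of these genes cannot be told apart. AT14A and AT3G28300 are 2 copies of one sequence: all 1961 bases of the genes matched, and 2 of the 1000 bases upstream differed. The deposited values of the copies were the same in every library, with halved counts such as 13.5, so they are 1 measurement and are given once below. The Sadhu elements are far less alike, with 66.2% identity over 813 aligned bases.

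The 250 bases upstream of the annotated start are shown for the QQS, AT4G29200 and AT14A loci, which had the largest genotype differences on MeJA. In QQS (chr3:12348797-12349046, plus strand) capitals mark the most similar pair of 30-base stretches within the window, which matched at 24 bases. A pair at least as close stood in 4.1% of the 37897 upstream windows of the annotation. This was the lowest share among the 8 loci, and the same search gave 14.6% to 96.5% at the others. One share of 8 must be the lowest, so nothing is read from its rank. In AT4G29200 (chr4:14400199-14400448, minus strand) and in AT14A (chr3:10547191-10547440, plus strand, with the same 250 bases at AT3G28300) capitals mark TATAAA. Counted from the annotated start, the marked TATAAA begins at -197 in AT4G29200 and at -66 in AT14A.
QQS: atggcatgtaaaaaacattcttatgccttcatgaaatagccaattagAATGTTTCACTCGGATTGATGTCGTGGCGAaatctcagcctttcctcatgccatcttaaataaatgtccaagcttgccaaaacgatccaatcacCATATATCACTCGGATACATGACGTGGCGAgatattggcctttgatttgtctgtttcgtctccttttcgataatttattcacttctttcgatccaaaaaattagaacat
AT4G29200: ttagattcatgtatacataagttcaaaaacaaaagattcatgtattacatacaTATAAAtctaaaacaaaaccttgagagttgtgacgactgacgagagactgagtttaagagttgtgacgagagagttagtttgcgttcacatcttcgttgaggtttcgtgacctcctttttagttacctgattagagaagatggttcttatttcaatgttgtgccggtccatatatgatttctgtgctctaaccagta
AT14A: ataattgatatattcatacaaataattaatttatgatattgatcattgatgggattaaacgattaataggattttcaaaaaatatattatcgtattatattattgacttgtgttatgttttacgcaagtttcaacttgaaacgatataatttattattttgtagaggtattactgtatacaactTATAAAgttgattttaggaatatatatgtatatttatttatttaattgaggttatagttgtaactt
Short motifs were searched on both strands from 250 bases before to 50 bases after each start. None of the 8 loci held CACGTG, the G-box bound by MYC2-type factors, which 6.46% of all windows held. None held GCCGCC, the GCC-box bound by ERF factors, which 2.72% held. TATAAA stood in AT4G29200, AT14A and AT3G28300, and in 48.8% of all windows.

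Libraries held between 20546417 and 20897031 estimated counts. ERF114 itself, the check of the genotype, had 13, 13 and 10 counts in erf114 on MeJA, against 59, 50 and 42 in Col on MeJA, and 0 to 3 counts in every library on MS. VSP2, a jasmonate-induced gene used to check the treatment, averaged 273 ± 14.5 and 2.22 ± 0.396 FPKM in erf114 on MeJA and on MS, and 234 ± 24.0 and 1.81 ± 0.132 FPKM in Col on MeJA and on MS (SD, n = 3). All 9 root markers were above 0 in every library. The 3 shoot markers summed to between 80.1 and 852 FPKM and overlapped between all groups. The seed storage genes CRA1 and SESA1 moved with genotype: they summed to 20.1 to 35.4 FPKM in erf114 on MeJA, against 0.67 to 1.74 in Col on MeJA, and to 0.11, 34.9 and 30.7 FPKM in erf114 on MS, against 0.07 to 0.65 in Col on MS, where only erf114 MS replicate 1 overlapped with Col. Neither was called between genotypes by edgeR on either medium (both had an unadjusted p under 0.05), and DESeq2 called both on both media. Whether the seed signal has any part in the differences below was not tested. In bulk roots, fewer cells of a type and less RNA per cell cannot be told apart. The labels do not say whether libraries came from separate cultures, so the spread may be technical.

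Transcripts of 4 loci were low in erf114 on both media: QQS, AT4G29200, MRD1 and SADHU3-2. SADHU5-1 and AT2G44500 were higher in erf114 on both media, and the AT14A pair was lower in erf114 on MeJA. FPKM (fragment counts per length of gene and per depth of library) of the 2 genotypes did not overlap for 6 of the 8 loci on MS, where 9.67% of all genes tested did not overlap. On MeJA they did not overlap for all 8, where the share of all genes was 17.4%. By edgeR's quasi-likelihood test at an adjusted p of 0.05, 5 of the 8 were among the 6 genes called on MS (0.0327% of genes tested) and 7 of the 8 among the 70 called on MeJA (0.382%). With the replicate numbers as a block, 4 of those 6 genes were called on MS. Those counts follow from how the loci were chosen, and nothing is read from them. The other gene called on MS was NAS2, a nicotianamine synthase.

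**Figure D1:**
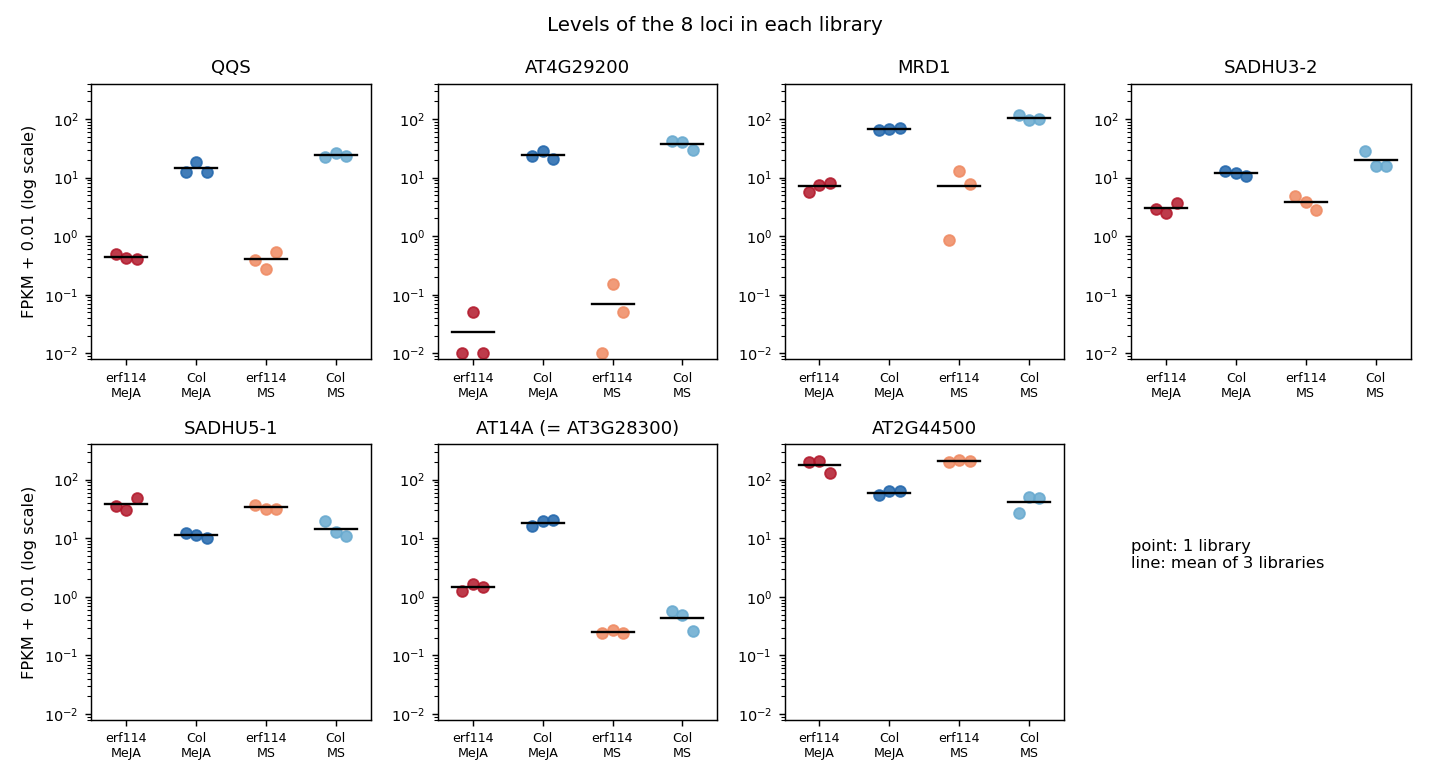
FPKM of each locus by library, with 0.01 added, on a log axis; each point is 1 of 3 libraries of a group and the line is the group mean. QQS, AT4G29200, MRD1 and SADHU3-2 lay lower in erf114 than in Col on both media, SADHU5-1 and AT2G44500 lay higher, and the AT14A pair was above 10 FPKM in Col on MeJA only.

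QQS was nearly silent in erf114. On MeJA it had 0.49, 0.41 and 0.40 FPKM in erf114, against 12.5, 18.1 and 12.4 FPKM in Col. On MS the levels were 0.38, 0.27 and 0.52 FPKM in erf114, against 22.3, 25.9 and 23.1 FPKM in Col. No erf114 library came near a Col library on either medium. The counts behind these levels were 9 in erf114 against 308 in Col on MeJA, and 9 in erf114 against 531 in Col on MS. Scaled for depth, erf114 held 0.0317 of the Col count on MeJA (95% counting interval 0.0144 to 0.0609) and 0.0158 on MS (0.0072 to 0.0303). The fitted log2 differences were -4.93 ± 0.31 on MeJA and -5.93 ± 0.30 on MS (SE).

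AT4G29200 had the widest difference of the 8 loci. It had 0, 1 and 0 counts in erf114 on MeJA, against 522, 642 and 454 in Col on MeJA. On MS it had 0, 3 and 1 counts in erf114, against 943, 880 and 654 in Col. The groups were far apart, with 24.2 ± 4.22 FPKM in Col on MeJA and 36.9 ± 6.58 FPKM in Col on MS, and all 6 erf114 libraries at 0.14 FPKM or less. On MeJA, erf114 held 0.00067 of the Col count, with a counting interval of 1.7e-05 to 0.00374, from 1 count against 1618. On MS it held 0.00151, with an interval of 0.000411 to 0.00387, from 4 counts against 2477. Fitted log2 differences of a gene this low depend on the prior count; they were -10.13 on MeJA and -9.26 on MS. Without erf114 MeJA replicate 2 the first was -12.12, and without erf114 MS replicate 2 the second was -10.45.

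MRD1 was lower in erf114, at 0.115 of the depth-scaled Col count on MeJA (counting interval 0.103 to 0.128) and 0.0638 on MS (0.0573 to 0.071). On MeJA it had 5.65, 7.45 and 7.98 FPKM in erf114, against 64.6, 67.8 and 68.9 FPKM in Col. The MS libraries had 0.86, 12.7 and 7.67 FPKM in erf114, against 116, 94.5 and 98.3 FPKM in Col. The genotypes did not overlap, but the erf114 libraries on MS differed widely among themselves, with replicate 1 far below the other two. That library was also the erf114 library with the lowest seed marker sum, at 0.11 FPKM. Both values are of 1 library, and whether they are linked was not tested. MRD1 alone of the 8 loci was set against the seed genes by library, a comparison that was not planned. All Col libraries had low seed marker sums, 1.74 FPKM or less, with MRD1 at 64.6 FPKM or more. The log2 difference was -3.12 ± 0.55 on MeJA and -4.02 ± 0.57 on MS, or on MS -3.5 without erf114 MS replicate 1 and -4.72 without erf114 MS replicate 2. Whether reads of HEI10 or AT1G07887 add to these values was not tested.

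**Figure D2:**
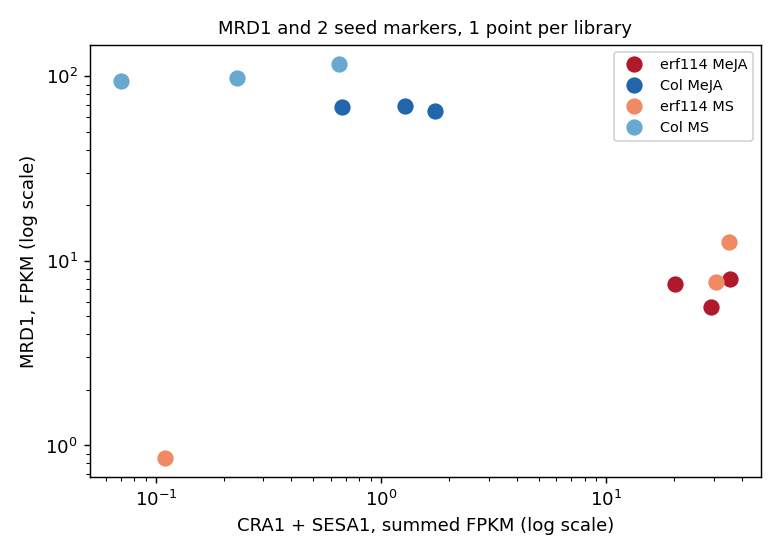
MRD1 FPKM against the summed FPKM of CRA1 and SESA1, both on log axes, 1 point per library. The other erf114 libraries lie at 5.65 to 12.7 FPKM of MRD1 and 20.1 to 35.4 FPKM of the seed genes, while erf114 MS replicate 1 lies at 0.86 and 0.11 FPKM.

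The 2 Sadhu elements differed between genotypes in opposite directions. SADHU3-2 had 2.86, 2.51 and 3.60 FPKM in erf114 on MeJA, against 13.1, 11.8 and 10.7 FPKM in Col on MeJA. On MS it had 4.86, 3.74 and 2.82 FPKM in erf114, against 28.5, 15.8 and 15.9 FPKM in Col. Every erf114 library was below every Col library, and Col MS replicate 1 was the highest of all. The log2 difference was -1.84 ± 0.36 on MeJA and -2.57 ± 0.36 on MS, or -2.04 on MS without Col MS replicate 1.

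SADHU5-1 had 34.9, 30.9 and 49.6 FPKM in erf114 on MeJA, against 12.1, 11.3 and 10.2 FPKM in Col on MeJA. Its MS levels were 37.6, 31.0 and 31.9 FPKM in erf114, against 20, 12.9 and 11.1 FPKM in Col. Here every erf114 library was above every Col library. The log2 difference was 1.94 ± 0.31 on MeJA and 1.03 ± 0.31 on MS, or 1.5 on MS without Col MS replicate 1. SADHU5-1 was not among the genes called on MS.

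AT2G44500 was the most abundant of the 8 loci per length in erf114. It had 198, 210 and 130 FPKM in erf114 on MeJA, against 54.3, 63.7 and 63.1 FPKM in Col on MeJA. Without MeJA, on MS, it had 203, 217 and 210 FPKM in erf114, against 27.5, 49.8 and 48.4 FPKM in Col. The genotypes were well apart in both media, with Col MS replicate 1 the lowest library and erf114 MeJA replicate 3 the lowest of the mutant. Counts were 3.24 times the Col level on MeJA (counting interval 3.15 to 3.32) and 4.68 times on MS (4.54 to 4.81). The log2 difference was 1.68 ± 0.15 on MeJA and 2.25 ± 0.16 on MS.

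The AT14A pair was near the limit of detection on MS in both genotypes. It had 1.24, 1.66 and 1.45 FPKM in erf114 on MeJA, against 16.0, 19.4 and 20.2 FPKM in Col on MeJA. On MS it had 0.23, 0.26 and 0.23 FPKM in erf114, against 0.56, 0.48 and 0.25 FPKM in Col. The genotypes were apart on MeJA and overlapped on MS. On MeJA the counts of the copies added up to 248 in erf114 and 3159 in Col, so that erf114 held 0.0851 of the Col level (counting interval 0.0745 to 0.0969). The log2 difference was -3.54 ± 0.22 on MeJA and -0.99 ± 0.35 on MS, the second from 41 counts in erf114 and 73 in Col.

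**Figure D3:**
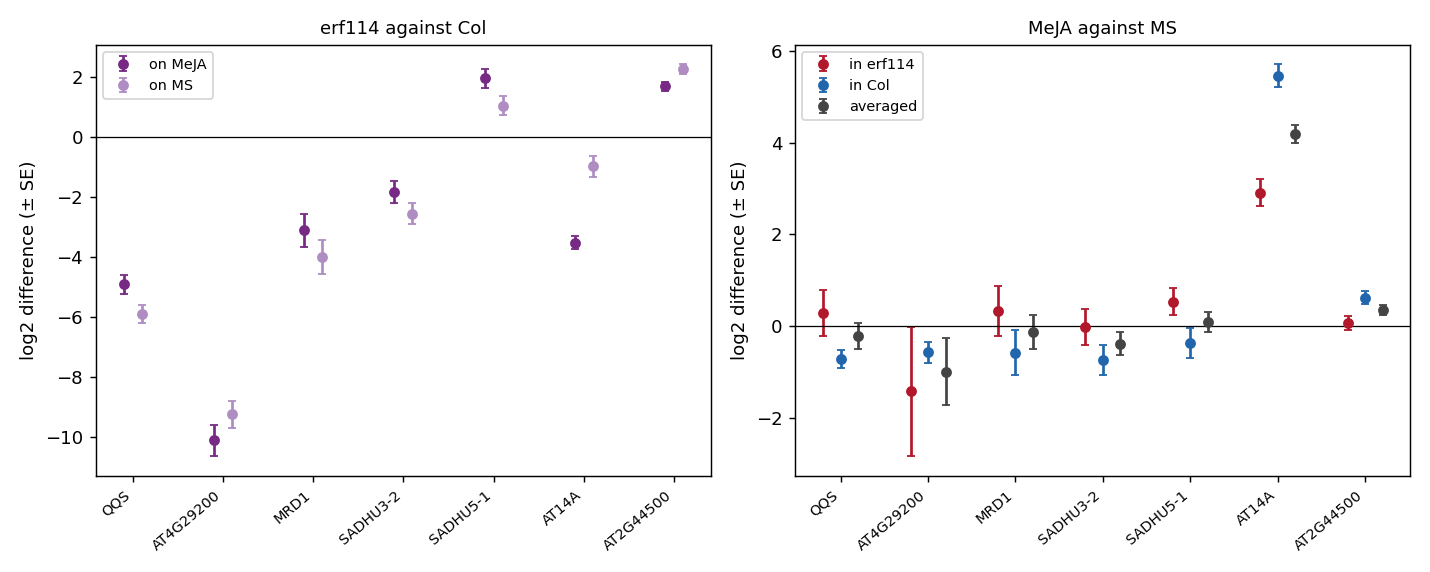
Log2 differences ± SE by locus, erf114 against Col on each medium (left panel) and MeJA against MS in erf114, in Col and averaged over both genotypes (right panel); AT3G28300 equals AT14A. The AT14A pair alone lies beyond 2 on the right.

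Ordered by mean level, QQS, AT4G29200, MRD1 and SADHU3-2 shared one pattern, with Col on MS highest, Col on MeJA next, and both erf114 groups lowest. Replicates of neighbouring groups in that order did not overlap, except that the 2 erf114 groups overlapped in each of these 4 loci. The share of all genes without overlap between media was not taken, so nothing is read from such steps at any locus. Of these 4 loci, edgeR called only QQS for MeJA in Col. For SADHU5-1 the erf114 groups came first and overlapped each other, and the Col groups followed and overlapped each other. For AT2G44500 the order was erf114 on MS, erf114 on MeJA, Col on MeJA and Col on MS, and only the erf114 groups overlapped. For the AT14A pair it was Col on MeJA, erf114 on MeJA, Col on MS and erf114 on MS, and only the MS groups overlapped.

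The response to MeJA, averaged over both genotypes, was tested, since its weights are orthogonal to those of the genotype differences that chose the loci. Orthogonal weights give independent estimates only where groups spread alike. For some loci they did not: the SE of the MeJA effect of AT4G29200 was 1.41 in erf114 and 0.23 in Col. The adjusted p-values of this contrast are therefore not fully free of the choice. The AT14A pair rose strongly with MeJA and AT2G44500 slightly, and the other 5 did not pass. By edgeR, 3 of the 8 loci were called, all higher on MeJA, against 29.2% of all genes tested; the AT14A copies count as 2 of the 3. The median log2 change was -0.03 over the 8 loci and -0.01 over all genes tested. Since the pair passed the filter on low values only through its MeJA libraries, nothing is read from that count or median.

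AT14A and AT3G28300 were 4.19 ± 0.19 higher on MeJA on the log2 scale (edgeR adjusted p = 8e-09), and every MeJA library of a genotype was above every MS library of it. With no filter the change was 4.2 (adjusted p = 1.6e-09), and with a filter on the mean over all libraries (5 FPKM or more) it was 4.18 (7.3e-09). The pair met this second filter only through Col on MeJA (mean 18.5 FPKM), so only the run with no filter is free of a filter effect. No run removes the effect of the choice of loci. Near the limit of detection on MS, the pair could differ widely between genotypes only through its level on MeJA. The choice thus favoured a rise on MeJA, and these p-values are not independent support for it. In erf114 alone the change was 2.91 ± 0.30 and in Col alone 5.46 ± 0.25. These 2 values share libraries with the genotype differences, so they are given without a p, and the difference between them was not tested because it is built from the contrasts that chose the loci. Depth-scaled counts of the pair on MeJA were 7.42 times those on MS in erf114 (counting interval 5.31 to 10.6), and 45.7 times those on MS in Col (36.3 to 58.5). Other genes of the AT14A family (DUF677) gave 1 called higher on MeJA, AT2G18630 (0.77 ± 0.10), and 1 called lower, AT3G49070 (-0.94 ± 0.13), of 5 tested and 13 annotated, by the same test with adjusted p = 5.4e-05 and 0.00013. Their median was -0.02, against -0.01 over all genes.

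AT2G44500 was 0.34 ± 0.11 higher on MeJA (edgeR adjusted p = 0.029), a call that was lost without any one of 7 of the 12 libraries (adjusted p = 0.052 to 0.078). Its change was 0.06 ± 0.15 in erf114 and 0.62 ± 0.15 in Col. In FPKM, which is not rescaled between libraries, the erf114 mean was lower on MeJA (179 ± 43.1) than on MS (210 ± 6.98), and limma on log2(FPKM + 1) gave -0.26 in erf114. The TMM factors that rescale the counts ran from 0.816 to 1.137.

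The remaining loci missed the threshold in the averaged contrast, by the same edgeR test. QQS changed by -0.22 ± 0.29 (adjusted p = 0.71), AT4G29200 by -1.0 ± 0.73 (0.36), MRD1 by -0.13 ± 0.37 (0.84), SADHU3-2 by -0.39 ± 0.25 (0.30) and SADHU5-1 by 0.08 ± 0.22 (0.83). In Col, where these 5 loci were measured at 10 FPKM or more, all had negative values on MeJA, between -0.75 and -0.37. The choice favoured this for QQS, AT4G29200, MRD1 and SADHU3-2, which were chosen as higher in Col, since Col on MS is the reference. SADHU5-1 in Col was 0.09 without Col MS replicate 1. Nothing is read from the shared direction. Col alone gave 4 of the 8 loci past the threshold, 3 higher (the AT14A copies and AT2G44500) and QQS lower, against 22.0% of all genes. For erf114 alone there were 2, the AT14A pair, against 18.8% of all genes. Since these contrasts share libraries with those that chose the loci, nothing is read from the counts.

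Genes beside the loci were compared between genotypes, taking the 3 listed genes on each side. There were 42 such neighbours. Most of those beside QQS and the AT14A pair were among 14 with all group means under 1 FPKM, which did not enter the test. The other 28 did. By edgeR, 0 were called on either medium (3 had an unadjusted p under 0.05 on MeJA and 3 on MS), limma called 0, and DESeq2 called 1 on MeJA, HEI10, and 0 on MS. Of all 18326 genes, edgeR called 0.382% on MeJA and 0.0327% on MS, and 1572 and 700 had an unadjusted p under 0.05. With shares this low, 0 calls among 28 genes say little about the neighbours. The largest log2 difference was 1.18 in size on MeJA and 0.94 on MS. HEI10, which overlaps MRD1 and encodes a RING protein of meiotic crossover formation, had 1.40 FPKM in erf114 and 2.70 FPKM in Col on MeJA, and 1.80 FPKM in erf114 and 2.47 FPKM in Col on MS. Its log2 difference was -1.18 ± 0.24 on MeJA (edgeR adjusted p = 0.076) and -0.77 on MS (0.85). GDU6, 2539 bases from QQS, differed by 0.20 on MeJA and 0.40 on MS. GGT4, 722 bases from AT4G29200, differed by -0.27 and -0.05, and AT2G44510, 249 bases from AT2G44500, by -0.13 and -0.01, on MeJA and on MS.

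**Figure D4:**
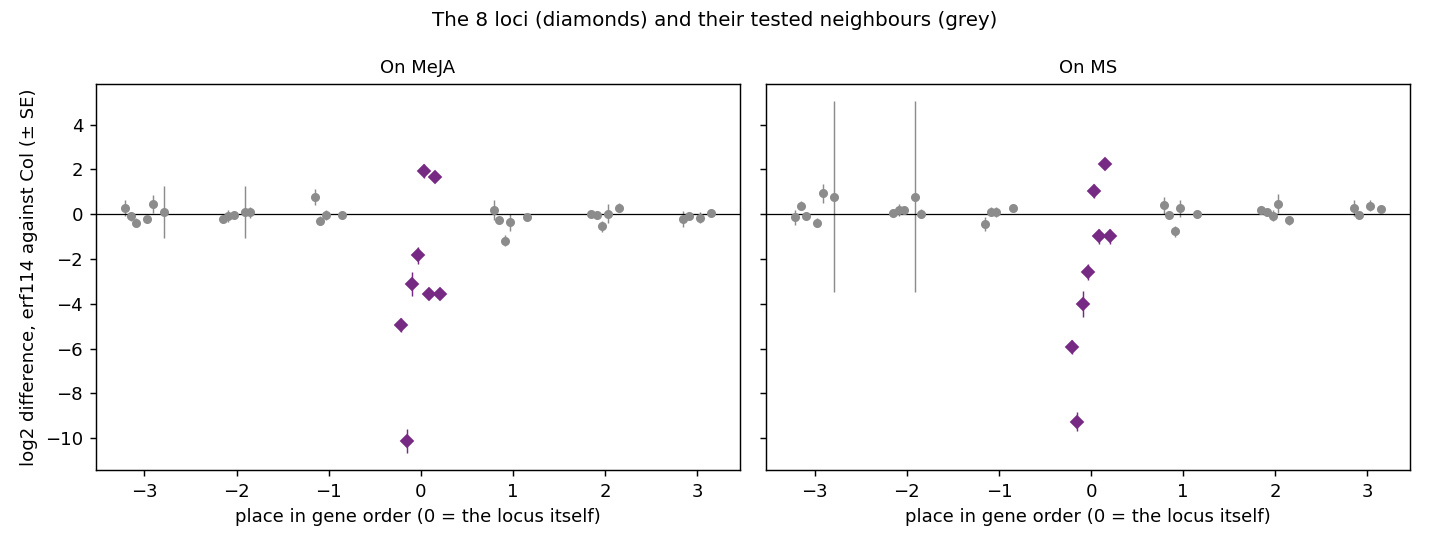
Log2 difference ± SE, erf114 against Col, for the 8 loci (diamonds at 0) and the tested genes among the 3 on each side (grey), on MeJA and on MS. Neighbours lie within 1.18 of 0 on MeJA and within 0.94 on MS, while the loci reach -10.13. The loci were chosen by this difference and the neighbours were not.

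Genes of the pathways around the loci were counted in fixed lists. Of 27 genes of DNA methylation and silencing, 23 were tested. By edgeR 0 were called between genotypes on either medium (2 had an unadjusted p under 0.05 on MeJA and 0 on MS), and DESeq2 and limma called 0. Of all 18326 genes, edgeR called 0.382% on MeJA and 0.0327% on MS, and 1572 and 700 had an unadjusted p under 0.05. With shares this low, 0 calls say little about a list of this size, here and in the lists below. Their median log2 difference was -0.12 on MeJA and 0.00 on MS, beside 0.01 over all genes on each medium. On MeJA against MS, averaged over genotypes, 2 of the 23 were called, against 29.2% of all genes, both higher: SUVH6, a histone methyltransferase gene (1.04 ± 0.15), and DCL3, a Dicer of the RNA-directed pathway (0.69 ± 0.15).

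Other Sadhu elements, 13 annotated and 6 tested, gave 0 genotype calls by edgeR, DESeq2 or limma (1 had an edgeR unadjusted p under 0.05 on MeJA and 0 on MS). The edgeR shares over all genes were 0.382% on MeJA and 0.0327% on MS. Against MeJA averaged over genotypes, SADHU4-1 was called higher (0.97 ± 0.16), and SADHU1-3 (-0.98 ± 0.10) and SADHU10-1 (-0.87 ± 0.15) lower, where 29.2% of all genes were called. SADHU1-1, the most abundant, had 222 FPKM in erf114 and 195 FPKM in Col on MeJA, and 253 FPKM in erf114 and 284 FPKM in Col on MS.

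Methionine genes, the setting in which MRD1 was named, gave 0 genotype calls of 16 tested by edgeR, DESeq2 or limma (3 with an edgeR unadjusted p under 0.05 on MeJA, 0 on MS). The edgeR shares over all genes were 0.382% on MeJA and 0.0327% on MS. MTO1, the cystathionine gamma-synthase gene mutated in mto1, had 222 FPKM in erf114 and 248 FPKM in Col on MeJA, and 309 FPKM in erf114 and 328 FPKM in Col on MS. With MeJA, 7 of the 16 were higher, among them HMT3 (3.32 ± 0.14) and MGL (2.62 ± 0.15), and MTO3 was lower (-0.32 ± 0.11). The median was 0.36, against -0.01 over all genes, of which 29.2% were called.

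Starch genes with NF-YC4, the partner of QQS, gave 0 genotype calls of 20 tested by the same 3 tools (1 with an edgeR unadjusted p under 0.05 on each medium). The edgeR shares over all genes were 0.382% on MeJA and 0.0327% on MS. NF-YC4 had 23.4 FPKM in erf114 and 26.3 FPKM in Col on MeJA, and 31.6 FPKM in erf114 and 31.5 FPKM in Col on MS. With MeJA 5 were higher and 3 lower, among them SS3 (1.22 ± 0.16) and DPE1 (-0.62 ± 0.09), with a median of 0.14, against -0.01 over all genes, of which 29.2% were called.

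The genes most like each locus were ranked by Pearson's r of log2(FPKM + 1) over the 12 libraries, a description in which libraries of a group share genotype and medium. For the AT14A pair the first was ERF114 (AT5G61890), with r = 0.979. ERF114 averaged 0.60 ± 0.0866 FPKM in erf114 on MeJA, against 2.53 ± 0.405 in Col on MeJA, and 0.0333 FPKM in erf114 on MS, against 0.05 in Col on MS. Both are thus high in Col on MeJA, intermediate in erf114 on MeJA and near 0 on MS. ERF114 is the mutated gene and passed the filter on low values only through Col on MeJA. The pair was chosen by its genotype difference, so nothing is read from this likeness.

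For QQS and AT4G29200 the first was AT1G27565, a gene of unknown product on chromosome 1 (r = 0.928 and 0.941), and the second CBL8, a calcineurin B-like calcium sensor (0.896 and 0.895). AT1G27565 was absent from the tables of all 3 erf114 libraries on MeJA and of 2 of the 3 on MS, and was taken as 0 there. Col on MeJA averaged 3.71 FPKM, and the gene averaged 0.143 FPKM in erf114 on MS, against 2.64 in Col on MS. CBL8 averaged 0.72 FPKM in erf114 and 2.72 FPKM in Col on MeJA, and 1.25 FPKM in erf114 and 3.94 FPKM in Col on MS. AT1G27565 was also first for MRD1 (0.874) and CBL8 for SADHU3-2 (0.873). For SADHU5-1 the first was AT1G34047, a defensin-like gene (0.908), and for AT2G44500 it was NAS2 (0.947), with 4.82 FPKM in erf114 and 2.17 FPKM in Col on MeJA.

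**Figure D5:**
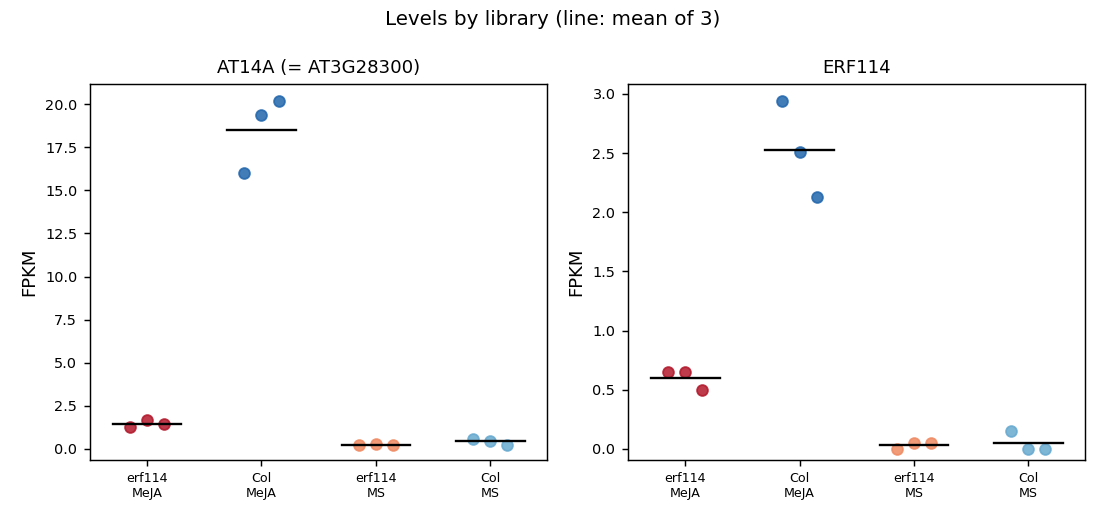
FPKM of AT14A (equal to AT3G28300) and of ERF114 by library on linear axes; points are libraries and lines are means of 3. Col on MeJA is highest in both panels (means 18.5 and 2.53 FPKM), erf114 on MeJA next (1.45 and 0.60 FPKM), and the MS groups are near 0.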

How the data were processed

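Roots of 12 seedling samples were sequenced. Per the file headers, the authors deposited estimated counts, TPM and FPKM per gene for each library; no source used here gives the aligner, counter or genome build. The deposited estimated counts were rounded and tested, the deposited FPKM gave levels and the filter, and the deposited TPM were only checked. Genes absent from a library's table were taken as 0. All 23719 identifiers matched TAIR10.1; annotated lengths followed those implied by the files (r = 0.973 over 14203 genes).

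The test was edgeR 4.0.16 (R 4.3.3), quasi-likelihood, TMM scaling, a mean per group over all 12 libraries, Benjamini-Hochberg adjustment over 18326 genes at 0.05. The common coefficient of variation was 17.9%, with 8 residual degrees of freedom. SE is the log2 change over the root of F. Count ratios use TMM-scaled group sums with exact conditional binomial 95% intervals, which cover counting error only. Chi-square per gene between replicates was 7.3 to 64.1, so none was a duplicate. The fit was tested on simulated data. Sequences were read with Python 3.11.15 and aligned with Biopython 1.88.

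Alternatives were median-of-ratios scaling, 2 other filters, DESeq2 1.42.0, limma 3.58.1 with pseudocounts of 1 and 0.1, a replicate block, each library left out, and, chosen after seeing the data, the AT14A copies summed. Deviations from group means were correlated between same-numbered libraries. The correlation was above 0.1 in every pair for Col MeJA and MS (0.43, 0.43 and 0.26) and for erf114 and Col on MS (0.20, 0.21 and 0.30), not elsewhere. Libraries of different number were not compared, so these values cannot show whether the numbers pair. No label says what same-numbered libraries share.

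The loci and lists were chosen with earlier results of these data known. Genes named are the 8 loci, 3 listed neighbours on each side, listed pathway genes that pass or have the largest change, the 3 most similar genes per locus, and ERF114 and VSP2; MTO1, NF-YC4 and SADHU1-1 and the nearest neighbours were picked after their values were seen.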

Additional observations from a re-analysis of the deposited data

How the results depend on the processing

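The genotype directions of the 8 loci held under every alternative run, and so did the call of the AT14A pair for MeJA averaged over genotypes (2.38 to 4.36). The choice of the pair favoured that call in every run. Between genotypes, 6 genes were called on MS and 70 on MeJA; DESeq2 called 19 and 233, and leaving out 1 library gave 3 to 16 and 19 to 133, with 16 without erf114 MS replicate 1, 133 without Col MS replicate 1 and 19 without Col MeJA replicate 2 or 3. For MeJA in erf114, 3438 genes were called, against 5419 by limma with a pseudocount of 1 and 5352 with 0.1; on that scale the median gene shifted by -0.28. Of these, 1863 were higher on MeJA by edgeR and 1224 by limma with 1; averaged over genotypes 2582 of 5354 were higher by edgeR and 1718 of 7300 by limma, where the median gene shifted by -0.16, and in Col 1912 of 4026 and 1509 of 4620. The cause of these changes was not tested.

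Reversed values were all of uncalled changes. For SADHU5-1 averaged, limma gave -0.08 with either pseudocount. MRD1 averaged was 0.01 by limma with 0.1, and AT2G44500 in erf114 was -0.26 by limma with either. Leaving out 1 library gave -0.08 to 0.31 for SADHU5-1 averaged, -0.59 to 0.09 for SADHU5-1 in Col, -0.39 to 0.22 for MRD1 averaged, -0.20 to 1.03 for MRD1 in erf114 (-0.20 without erf114 MS replicate 1), -0.03 to 0.19 for AT2G44500 in erf114, and up to 0.21 for SADHU3-2 in erf114, with 0.01 and 0.15 without erf114 MeJA replicate 1 or 2.

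With the replicate block, SADHU3-2 in erf114 was 0.00, 4 genes were called between genotypes on MS and 87 on MeJA, and 5722, 4405 and 3674 for MeJA averaged, in Col and in erf114; no locus changed its call for MeJA.

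AT2G44500 averaged lost its call by limma (0.15, adjusted p = 0.48). QQS in Col fell short of the threshold without Col MS replicate 1, Col MeJA replicate 1 or Col MeJA replicate 3. That contrast shares libraries with those that chose the loci, so it is given without a p and nothing is read from it. By limma with a pseudocount of 1, QQS, AT4G29200 and SADHU3-2 averaged passed the threshold (adjusted p = 0.033, 0.044 and 0.040); with 0.1 only SADHU3-2 of these did (0.17, 0.088 and 0.043). Depth limits AT4G29200 and QQS in erf114 and the AT14A pair on MS, where few counts leave small changes undetectable.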
